A study of Mus musculus with 10 samples.

Results

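The CXC chemokines are small secreted proteins named after a motif in which 1 residue separates a pair of cysteines. The genes described here are Cxcl1, Cxcl2, Cxcl5, Cxcl9, Cxcl10, Cxcl12, Cxcl13, Cxcl14, Cxcl15 and Cxcl16. They were chosen by name, and each was followed through every probe set (a group of short array probes designed against a transcript) that the platform annotation assigns to that gene alone. All 10 genes were represented, among 18194 genes on the array, by 19 probe sets. The brightest probe set on average led for each gene and the others served as a check. The series used lungs of ICR mice on Affymetrix mouse genome arrays to model bronchopulmonary dysplasia, a lung disease that follows oxygen treatment of preterm infants. Litters were mixed within 12 hours of birth and pups assigned at random to 80% oxygen (hyperoxia) or room air, for 14 or 29 days, while the dams were exchanged between the chambers. The dissected lungs were washed before RNA was extracted from the whole tissue. The 4 groups were room air at postnatal day 14 (P14, n = 2 arrays), hyperoxia at P14 (n = 3), room air at day 29 (P29, n = 2) and hyperoxia at P29 (n = 3). Neither the sex of the pups nor the number of animals behind an array is stated in the labels, so the p-values below reflect the spread among arrays alone, and that may be technical.

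CXC chemokines direct the movement of leukocytes by binding receptors on their surface. Members with a glutamate-leucine-arginine (ELR) motif ahead of the cysteines, among them Cxcl1, Cxcl2, Cxcl5 and Cxcl15, draw neutrophils, chiefly through the receptor Cxcr2. Cxcl9 and Cxcl10 are induced by interferons and attract activated T cells and natural killer cells through Cxcr3. Cxcl12 (receptors Cxcr4 and Ackr3), Cxcl13 (Cxcr5), Cxcl14 and the membrane-bound Cxcl16 (Cxcr6) are made in unchallenged tissue and guide resident or circulating cells.

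Across genes, the correlation between 2 arrays was 0.993 to 0.996 within a group and 0.935 to 0.983 between groups. The lung markers Sftpc and Ager were bright on all 10 arrays, at 14.66 to 14.89 and 14.03 to 14.45 on the log2 scale. RNA quality and sex-linked transcripts moved with the groups. In the actin control, the excess of the 3' over the 5' probe set, a sign of shortened or incompletely transcribed RNA, was 0.32 to 0.74 for the 4 room-air arrays and 1.33 to 2.21 for the 6 hyperoxia arrays, without overlap. At P14 all arrays carried Y-linked transcripts. At P29 both room-air arrays had only the female marker Xist (12.48 and 12.66), while the hyperoxia arrays ranged from 7.12 to 12.54. In room air, sex-linked transcripts therefore changed together with age, and the room-air groups alone cannot tell the parts apart. All RNA came from whole lung, so fewer cells of a type and less RNA per cell cannot be told apart.

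Of the 10 genes, 9 reached a log2 value of 5 on at least 2 arrays, the limit for testing, and Cxcl2 did not. At P14, 4 of the 9 were higher in hyperoxia, 1 was lower and 4 did not pass (limma, adjusted p under 0.05). Over all 14989 genes tested, 55.0% were called at P14, 32.3% higher and 22.8% lower. At P29, 4 were higher, 2 lower and 3 did not pass, beside 59.7% of all genes, 34.2% higher and 25.5% lower. Of all calls, 58.6% were higher at P14 and 57.2% at P29, but 45.0% and 41.2% after each array was scaled to its 75th percentile, which moved the median difference of all genes from 0.04 to -0.06 at P14 and from 0.04 to -0.09 at P29. Shares of this size are near the background, so the counts by themselves are not a result about this family. The median log2 difference of the 9 genes was 0.32 at P14 and 0.21 at P29, against 0.04 for all genes at both ages. The range was wide, from -0.60 for Cxcl16 to 3.73 for Cxcl5 at P14 and from -1.51 for Cxcl12 to 2.76 for Cxcl5 at P29. When the actin difference, whose part in these results was tested only in this way, was added to the model as a term, 1 leading probe set was called at each age, Cxcl13 at P14 and Cxcl12 at P29. Over the 17 probe sets tested, 3 were called at P14 with this term (the first Cxcl13 set, 1448823_at of Cxcl12 and 1418457_at of Cxcl14) and 2 at P29 (1417574_at and 1448823_at of Cxcl12). Over all genes, 1387 in place of 8249 were called at P14 with this term and 2905 in place of 8948 at P29. Effects of receptors, other ligands, cytokines, proteases and markers below come from the fit without added terms. The part of the actin difference in them is not given. The shares of all genes above are also the background for counts in those lists.

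**Figure D1:**
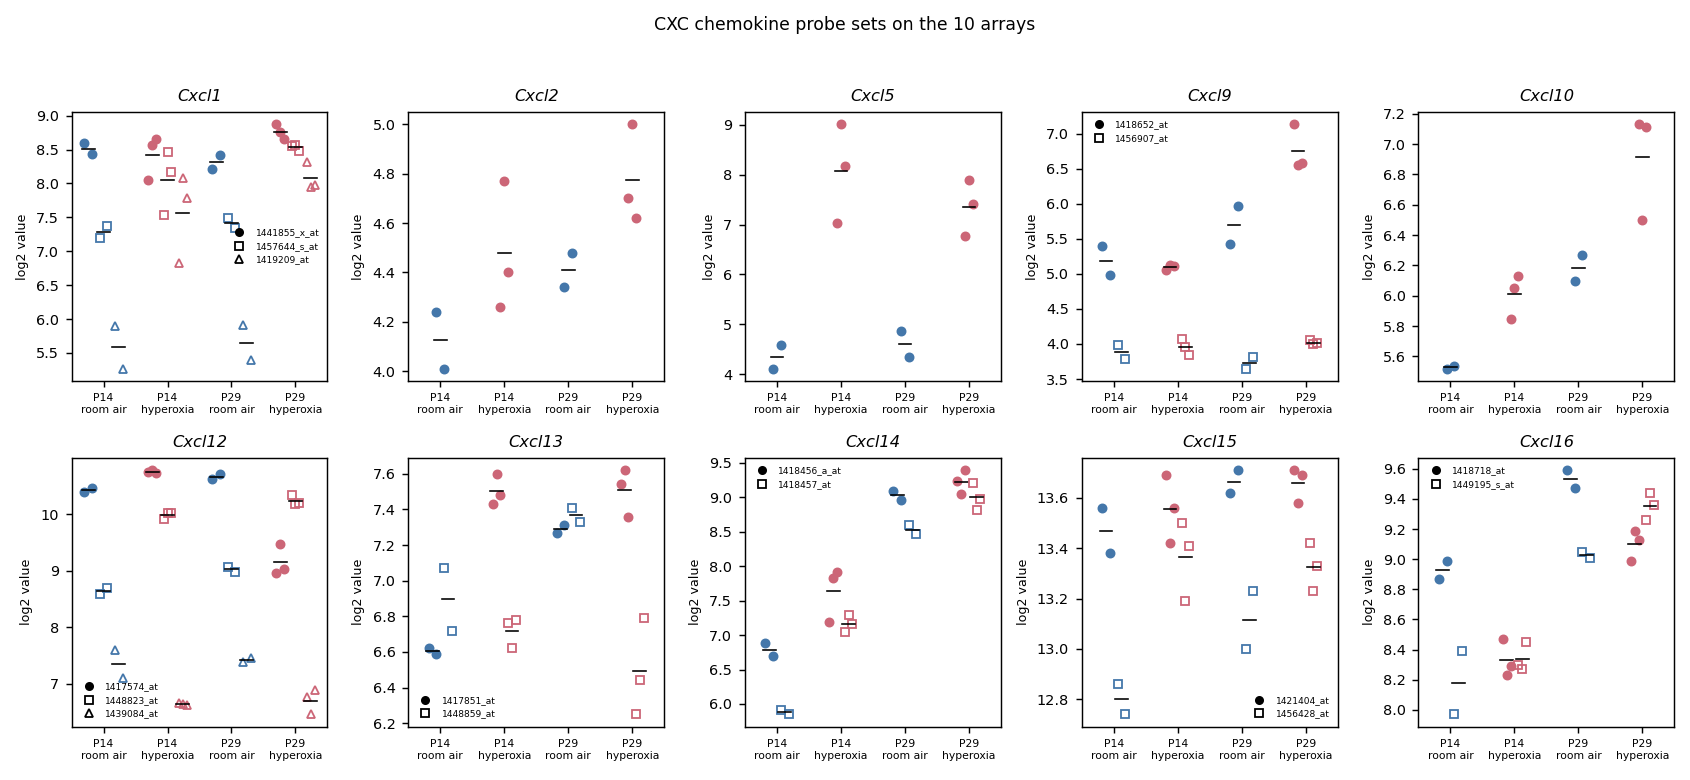
Log2 values of all 19 probe sets of the 10 genes (y axis, a separate scale in each panel) on the 10 arrays by group (x axis; room air in blue, hyperoxia in red, bars at group means). Filled circles are the leading probe set and open symbols the others; Cxcl5 lies at 7.04 to 9.01 on the P14 hyperoxia arrays and below 5 in room air, while the probe sets of Cxcl12 run in different directions.

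Cxcl5, an ELR chemokine made by lung epithelial cells, had the largest increase of the 9 genes at both ages. Its only probe set, 1419728_at, read 4.11 and 4.58 in P14 room air and 7.04, 9.01 and 8.18 in P14 hyperoxia. The P29 values were 4.86 and 4.35 in room air and 6.78, 7.89 and 7.41 in hyperoxia. Every hyperoxia array was above every room-air array at both ages, and the hyperoxia arrays of the 2 ages overlapped. All 4 room-air arrays lay below the limit of 5, where the array separates levels poorly, so the gene entered the test through its hyperoxia arrays alone. Set against that limit, Cxcl5 was at least 8.44-fold higher at P14 and at least 5.13-fold higher at P29. The fitted log2 differences, which rest on those room-air values, were 3.73 ± 0.46 (SE, limma adjusted p = 8.13e-05) and 2.76 ± 0.46 (adjusted p = 0.000447). The difference between these effects, -0.98 ± 0.66, did not pass (adjusted p = 0.328). Within P14 hyperoxia the arrays were far apart (SD 0.99), with replicate 1 lowest. With the actin difference as a term the effect was 2.80 ± 1.06 at P14 and 1.88 ± 1.01 at P29 (SE, on a fit of every probe set), and neither passed (adjusted p = 0.129 and 0.221).

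Cxcl1, the mouse chemokine also called KC, has 3 probe sets that gave different sizes of change. The brightest, 1441855_x_at, carries a suffix that Affymetrix gives to sets whose probes may also match other sequences. Which sequences each of the 3 sets detects was not determined here. Values of the brightest come first. This set read 8.59 and 8.43 in P14 room air against 8.05, 8.56 and 8.66 in hyperoxia, and 8.22 and 8.42 in P29 room air against 8.87, 8.76 and 8.66. These groups overlapped at P14 (-0.08 ± 0.16, limma adjusted p = 0.664) and separated at P29 (0.44 ± 0.16, adjusted p = 0.0306), where the call ended without room air replicate 1, hyperoxia replicate 1 or hyperoxia replicate 2 (adjusted p = 0.185, 0.0818 and 0.0572). It also ended after quantile normalization (0.30, adjusted p = 0.119), with scaling to the 75th percentile (0.31, adjusted p = 0.108) and with a Y-linked gene level as a term (0.43, adjusted p = 0.107). The dimmer set 1419209_at read 5.90 and 5.27 in P14 room air and 6.82, 8.08 and 7.78 in hyperoxia. The P29 arrays were at 5.91 and 5.39 in room air and 8.31, 7.94 and 7.98 in hyperoxia. On that set Cxcl1 was 3.92-fold higher in hyperoxia at P14 and 5.38-fold higher at P29, with no overlap (1.97 ± 0.33 and 2.43 ± 0.33, adjusted p = 0.000709 and 0.000161 in the fit of all 27615 probe sets tested one by one). The third set, 1457644_s_at, rose by 0.77 ± 0.21 at P14 and 1.11 ± 0.21 at P29 (adjusted p = 0.0106 and 0.00125). At P29 all 3 sets were therefore called higher, and at P14 2 of 3. With the actin difference as a term neither of these sets passed, 1419209_at giving 1.61 at P14 and 2.09 at P29 (adjusted p = 0.199 and 0.0757) and 1457644_s_at 0.27 and 0.64 (adjusted p = 0.723 and 0.322). Averaging the 3 sets gave 0.89 at P14 (adjusted p = 0.0045), where the leading set had given no call.

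Cxcl2, the neutrophil chemokine also called MIP-2, was dim throughout. The 10 arrays lay between 4.01 and a highest value just under 5, with means of 4.13 ± 0.16 (SD, n = 2) and 4.48 ± 0.27 (n = 3) in P14 room air and hyperoxia and 4.41 ± 0.10 and 4.77 ± 0.20 at P29. The hyperoxia arrays were above the room-air arrays at both ages. In a fit with no lower limit the differences were 0.35 ± 0.15 and 0.36 ± 0.15 (SE), and neither passed (limma adjusted p = 0.0784 and 0.0653). Cxcl3, another ELR ligand, was also below the limit, at 3.30 to 3.58 on the room-air arrays and 3.94 to 4.59 on the hyperoxia arrays.

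Cxcl15, or lungkine, is an ELR chemokine made mainly by lung epithelium. It was among the brightest signals, at 13.38 to 13.71 over all 10 arrays on its leading set 1421404_at, near the top of the scale, where differences can be compressed. Hyperoxia and room air overlapped there at both ages, and the 95% intervals of the differences were -0.12 to 0.31 at P14 and -0.22 to 0.21 at P29. The second set, 1456428_at, was at 12.86 and 12.74 in P14 room air and 13.50, 13.19 and 13.41 in P14 hyperoxia, a rise of 0.57 ± 0.11 (limma adjusted p = 0.00218). At P29 it differed by 0.21 ± 0.11 (adjusted p = 0.132). Markers of alveolar type 2 cells, an epithelial type, were lower for 4 of 8 genes at P14 and 5 of 8 at P29, led by the surfactant gene Sftpb (-1.55 and -1.74) and the protease Napsa (-1.23 and -1.32). Their mean level was 12.38 to 12.51 in P14 room air, 11.81 to 12.08 in P14 hyperoxia, 12.88 to 12.92 in P29 room air and 12.03 to 12.26 in P29 hyperoxia, and their part in the Cxcl15 and Cxcl5 values was not tested.

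The sequences upstream of Cxcl1, Cxcl2, Cxcl9 and Cxcl10 are shown because these genes are textbook targets of NF-kB, a transcription factor of inflammation, the last 2 also of interferons. RefSeq (build GRCm38.p6) gave promoters for 8 of the 10 genes, and none for Cxcl5 and Cxcl16. The 250 bases before the start were searched on both strands for a kappaB-like motif (GGGANNTTC), an interferon-response-like motif (GAAANNGAA) and a STAT-like motif (TTCNNNGAA). Capitals mark the matches, and each sequence runs 5' to 3' on the strand of its gene. Only these letters were searched, so sites of another form are not marked and the capitals are not a full map of sites. The windows are chr5:90890995-90891244 (plus strand) for Cxcl1, chr5:90903649-90903898 (plus) for Cxcl2, chr5:92328080-92328329 (minus) for Cxcl9 and chr5:92348890-92349139 (minus) for Cxcl10.
Cxcl1: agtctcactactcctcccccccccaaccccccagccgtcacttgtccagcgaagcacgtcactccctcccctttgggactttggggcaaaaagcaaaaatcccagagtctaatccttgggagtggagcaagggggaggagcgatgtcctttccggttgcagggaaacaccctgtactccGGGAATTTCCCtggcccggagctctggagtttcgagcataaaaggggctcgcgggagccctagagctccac
Cxcl2: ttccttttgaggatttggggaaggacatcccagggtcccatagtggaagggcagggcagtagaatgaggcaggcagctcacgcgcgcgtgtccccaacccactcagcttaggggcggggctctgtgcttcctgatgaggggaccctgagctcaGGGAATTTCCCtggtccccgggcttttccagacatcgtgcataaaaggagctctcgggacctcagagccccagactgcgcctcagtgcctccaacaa
Cxcl9: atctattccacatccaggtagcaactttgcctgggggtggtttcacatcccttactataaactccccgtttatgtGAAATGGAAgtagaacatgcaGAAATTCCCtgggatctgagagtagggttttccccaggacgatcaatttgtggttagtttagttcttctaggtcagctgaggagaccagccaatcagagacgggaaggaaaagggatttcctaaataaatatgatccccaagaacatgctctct
Cxcl10: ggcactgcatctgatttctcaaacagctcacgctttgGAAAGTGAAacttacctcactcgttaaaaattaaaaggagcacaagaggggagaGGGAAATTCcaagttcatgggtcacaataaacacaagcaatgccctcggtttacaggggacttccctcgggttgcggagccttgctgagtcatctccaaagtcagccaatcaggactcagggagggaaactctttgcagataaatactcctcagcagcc

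In Cxcl1 and Cxcl2 the same 11 capitals hold overlapping kappaB-like matches on both strands, the last ending 61 and 87 bases before the start. Cxcl10 holds a kappaB-like match from base 159 to 151 before the start and an interferon-response-like match from base 213 to 205. Cxcl9 holds the same pair, from base 154 to 146 on the other strand and from base 175 to 167. With 1 more letter on each motif, a closing C and A, the matches of the other 3 genes stayed and those of Cxcl9 did not. The kappaB-like letters occur in 3.23%, the interferon-response-like letters in 7.13% and the STAT-like letters in 7.02% of the 32851 RefSeq windows of this length. Cxcl14 held an interferon-response-like and a STAT-like match, and Cxcl12, Cxcl13 and Cxcl15 held none of the 3 motifs in this window.

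Other measured genes of the neutrophil axis did not all move with Cxcl5 and Cxcl1. Cxcr2, the receptor of these ligands, was at 5.08 and 5.08 in P14 room air and 4.66, 4.65 and 4.60 in hyperoxia. At P29 it was at 5.59 and 5.55 against 4.69, 4.61 and 4.82. It was called lower at both ages (limma adjusted p = 0.000839 and 7.16e-06). All 6 hyperoxia arrays were below the limit, so set against it Cxcr2 was at least 1.06-fold lower at P14 and at least 1.48-fold lower at P29. Of 12 neutrophil markers listed, 9 were measured, and all 9 were lower in hyperoxia at both ages, with medians of -1.37 and -1.78. Their mean log2 level ranged from 8.09 to 8.14 in P14 room air and 6.73 to 6.88 in P14 hyperoxia, and from 8.16 to 8.57 and 6.47 to 6.56 at P29. S100a8, a calcium-binding protein of neutrophils, was at -2.23 and -3.65, and S100a9, its partner, at -1.85 and -3.40. Mpo, the enzyme myeloperoxidase, was dim in room air, at 5.30 ± 0.08 (SD, n = 2) at P14, and lay below 5 on all hyperoxia arrays. The part of these cells in the ligand values was not tested.

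**Figure D2:**
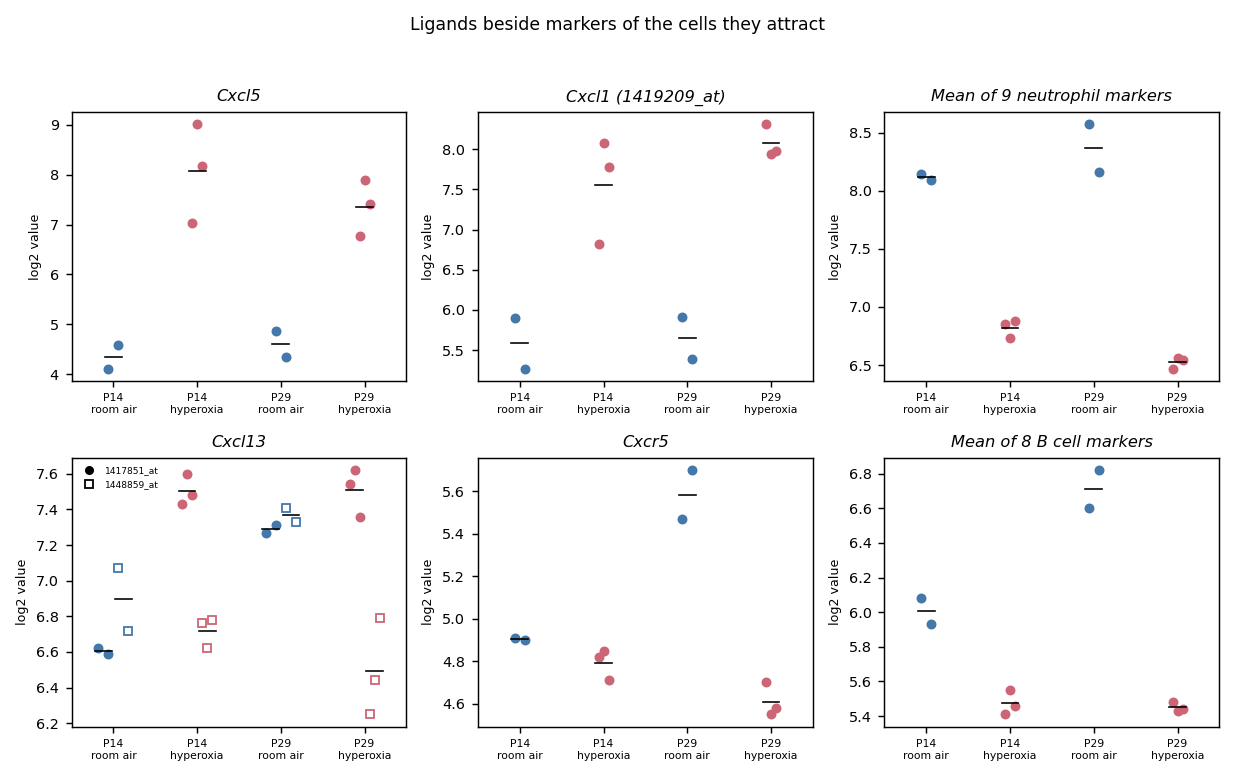
Log2 values (y axis, a separate scale in each panel) by group (x axis; room air in blue, hyperoxia in red, bars at group means) of Cxcl5, Cxcl1 on probe set 1419209_at and the mean of 9 neutrophil markers in the top row, and of Cxcl13, its receptor Cxcr5 and the mean of 8 B cell markers in the bottom row. Cxcl5 and this dimmest Cxcl1 set are high where the neutrophil markers are low, and Cxcr5 peaks in P29 room air together with the B cell markers. The leading Cxcl1 set is not shown here, and its P14 groups overlapped.

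Among cytokines that induce CXC chemokines, 6 of 10 were tested. Il6 was higher in hyperoxia at both ages, and Il1b and Ifngr2 (-0.84 and -0.81), a subunit of the interferon-gamma receptor, were lower at both. A second Ifngr2 set, 1423558_at, gave -0.16 and -0.05 with no call. Il17ra and Ifngr1 passed at P29 (-0.33 and -0.61) and not at P14 (0.19 and -0.01), and the ages differed for both (-0.52 and -0.60, limma adjusted p = 0.0365 and 0.0197). On a second Il17ra set, 1420904_at, the difference between the ages was -0.53 with no call (adjusted p = 0.167). Il6, an inflammatory cytokine, was listed at 3.77 and 3.89 in P14 room air and 5.60, 6.82 and 6.43 in hyperoxia, and was called higher at both ages (limma adjusted p = 4.04e-05 and 6.66e-06). Its room-air arrays were all below the limit, so Il6 entered the test through its hyperoxia arrays alone. Against that limit it was at least 2.43-fold higher at P14 and at least 3.09-fold at P29. It was the gene whose pattern over the 10 arrays was nearest to that of Cxcl5 (root mean square difference of centred log2 values 0.65, where Cxcl5 itself spread by 1.70). For both genes the room-air values behind this match lay below the limit, where levels are poorly separated. Next came Moxd1 (0.78) and the quinone reductase Nqo1 (0.80). Il1b, which encodes interleukin 1 beta, fell by 0.75 ± 0.13 at P14 and by 1.51 ± 0.13 at P29 (limma adjusted p = 0.000542 and 3.53e-06). Tnf differed by -0.31 and -0.23 and did not pass. Il17a, Il1a and Ifng were below the limit for testing.

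NF-kB target and feedback genes had calls in both directions. Of 10 tested, 6 were higher and 1 lower at P14, beside 32.3% and 22.8% of all genes. At P29, 3 were higher and 2 lower, beside 34.2% and 25.5%, so the P29 counts are near the background. The medians were 0.32 and 0.07. The adhesion molecule Vcam1 rose by 0.90 at P14 and 1.61 at P29 (limma adjusted p = 5.14e-05 and 6.64e-07), although its 2 dimmer probe sets lay between -0.17 and 0.15 with no call. Birc3, an inhibitor of cell death, rose by 0.69 and 0.29, Zfp36, which destabilises cytokine mRNAs, rose by 0.72 at P14 and was at -0.34 at P29 with no call, and Nfkbiz rose by 0.63 at P29. Other sets gave no call for Birc3 (0.11 and -0.17) or, at P29, for Nfkbiz (0.01 and 0.36 on 2 sets) and Nfkb2 (-0.11). Icam1 rose by 0.36 at P14 and fell by 0.28 at P29, and Nfkb2, an NF-kB subunit, fell by 0.33 and 0.41. Tnfaip3, a feedback inhibitor, rose by 0.59 at P14 on its leading set, while its second set fell by 0.63 at P14 and by 0.60 at P29. Nfkbia was not called on its leading set (0.29 and -0.23). Its sets 1420089_at, 1438157_s_at and 1449731_s_at were called higher at P14 (0.57, 0.42 and 0.71) and not called at P29. The set 1448306_at gave -0.30 with no call at P14 and was called lower at P29 (limma adjusted p = 0.000793).

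Cxcl9, an interferon-induced ligand, rose in hyperoxia at P29 and not at P14. Its leading set, 1418652_at, read 5.39 and 4.98 in P14 room air and 5.05, 5.13 and 5.11 in P14 hyperoxia. At P29 it read 5.42 and 5.97 in room air and 7.13, 6.55 and 6.58 in hyperoxia. The P29 arrays did not overlap, and the increase was 2.08-fold (1.06 ± 0.20, limma adjusted p = 0.000843), while the P14 difference was -0.09 ± 0.20 (adjusted p = 0.703). These effects differed by 1.15 ± 0.28 (adjusted p = 0.0123), a call that ended without P14 room air replicate 1 (0.95, adjusted p = 0.0553) or P29 room air replicate 1 (0.88, adjusted p = 0.0558). With a Y-linked gene level as a term it passed over genes (1.02, adjusted p = 0.0325) and not over all probe sets (adjusted p = 0.0555). Over all probe sets, the P29 increase itself passed with the Y-linked term (0.87, limma adjusted p = 0.0194) and not with the actin term (1.10, adjusted p = 0.119). The second set, 1456907_at, stayed between 3.65 and 4.07 on all arrays, below the limit. Genes of nearest pattern were Lcn2, which encodes an iron-binding protein of neutrophils and epithelium, Syn2 and the Wnt inhibitor Sfrp1 (root mean square differences 0.29, 0.30 and 0.31, against a spread of 0.73 for Cxcl9).

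Cxcl10 was raised at both ages, by less. Its single set, 1418930_at, read 5.52 and 5.54 in P14 room air and 5.85, 6.05 and 6.13 in hyperoxia. It was at 6.10 and 6.27 in P29 room air and 7.13, 6.50 and 7.11 in P29 hyperoxia. Neither pair of groups overlapped. The log2 differences were 0.48 ± 0.17 at P14 (limma adjusted p = 0.031) and 0.73 ± 0.17 at P29 (adjusted p = 0.00332), or 1.39-fold and 1.66-fold. In the fit of all probe sets with the Y-linked term the differences were 0.38 and 0.37 (adjusted p = 0.018 and 0.0488). With the actin term they were 0.19 and 0.46, and neither passed (adjusted p = 0.78 and 0.413). The P14 call ended when P14 room air replicate 1 or 2 was left out (adjusted p = 0.126 and 0.0973) and without hyperoxia replicate 2 or 3 (0.0682 and 0.0903), as well as with scaling to the 75th percentile (0.38, adjusted p = 0.0804). Cxcl10 also rose with age, by 0.66 ± 0.18 in room air and 0.90 ± 0.15 in hyperoxia (adjusted p = 0.0138 and 0.00123). The call in room air ended without P14 room air replicate 1 or 2 or P29 room air replicate 2 (adjusted p = 0.0595, 0.0575 and 0.0845).

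Interferon-gamma response genes did not follow the hyperoxia effect on Cxcl9 at P29. Of 10 tested, 0 were higher and 6 lower in hyperoxia at P29, with a median of -0.39, and 3 were higher and 3 lower at P14. From P14 to P29 all 10 were called higher, in room air (median 1.10) and in hyperoxia (median 0.70). Beside this, 22.2% and 15.4% of all genes were higher with age. Psmb9 and Psmb8, subunits of the immunoproteasome, fell by 1.07 and 0.76 at P29 (limma adjusted p = 1.89e-05 and 6.76e-05), and the transcription factor Irf1 fell by 0.56. Gbp2, an interferon-induced GTPase, rose by 0.85 at P14 and fell by 0.49 at P29, and its relative Gbp3 rose by 0.96 at P14. Cxcr3, the receptor of Cxcl9 and Cxcl10, was at 7.0 and 6.86 in P29 room air and 6.63, 6.77 and 6.76 in hyperoxia, and did not pass at P29 (-0.21 ± 0.09, adjusted p = 0.0738) or at P14 (0.06 ± 0.09, adjusted p = 0.609). Markers of T and natural killer cells, which carry this receptor, were lower for 8 of 10 genes at P14 and 10 of 10 at P29. Their mean level was 6.21 to 6.25 in P14 room air and 5.63 to 5.69 in P14 hyperoxia, and 7.38 to 7.40 and 5.96 to 5.98 at P29. Cd2, an adhesion receptor of T cells that was below the limit on all hyperoxia arrays, was at least 1.35-fold lower at P14 and 4.61-fold lower at P29. Cd3g, a T cell receptor component also below the limit in P14 hyperoxia, was at -1.68 at P29. The part of these cells in the Cxcl9 and Cxcl10 values was not tested.

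Cxcl12, the ligand that retains progenitor and immune cells and guides vessel growth, gave opposite calls on its probe sets. The leading set, 1417574_at, read 10.40 and 10.46 in P14 room air and 10.75, 10.78 and 10.73 in hyperoxia, a difference of 0.32 ± 0.13 that did not pass (limma adjusted p = 0.0507) but did without P29 hyperoxia replicate 1 or 2 (adjusted p = 0.0358 and 0.00524). It also passed with a stricter filter, a trend and robust fit, the 2 groups fitted alone, the replicate numbers as a block or a Y-linked term, and with probe sets averaged (adjusted p = 0.00148 to 0.0462). At P29 it read 10.62 and 10.71 in room air and 8.97, 9.47 and 9.04 in hyperoxia, 2.84-fold lower (-1.51 ± 0.13, adjusted p = 3.85e-06). The P29 hyperoxia arrays were below all 7 others. The difference of effects was -1.83 ± 0.18 (adjusted p = 6.8e-05). Closest in pattern to this set were Rnf144a (root mean square difference 0.18), Glb1l3 (0.22) and Ednrb, an endothelin receptor (0.27), against a spread of 0.70 for Cxcl12 itself.

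The set 1448823_at gave another direction. It read 8.59 and 8.69 in P14 room air and 9.92, 10.03 and 10.02 in hyperoxia. The P29 values were 9.07 and 8.98 against 10.35, 10.18 and 10.20. Here Cxcl12 was higher in hyperoxia at both ages, by 1.35 ± 0.09 and 1.21 ± 0.09 (limma adjusted p = 5.13e-06 and 3.53e-06), and no groups overlapped. The dimmest set, 1439084_at, read 7.59 and 7.11 in P14 room air and 6.66, 6.64 and 6.63 in hyperoxia, with 7.39 and 7.45 against 6.76, 6.46 and 6.89 at P29. It fell by 0.71 ± 0.15 at P14 and by 0.71 ± 0.15 at P29 (adjusted p = 0.00271 and 0.00223). Cxcl12 is known to be spliced into isoforms with different ends. Which transcripts each set detects was not determined here, so no direction is given for the gene as a whole. With the actin term, the fall of 1417574_at at P29 (-1.57 ± 0.29, adjusted p = 0.00967) and the rises of 1448823_at (1.30 ± 0.20 and 1.16 ± 0.19, adjusted p = 0.0141 and 0.00639) still passed, while 1439084_at did not (-0.53 and -0.55, adjusted p = 0.342 and 0.262), so that with this term the opposite calls were found at P29 and not at P14.

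**Figure D3:**
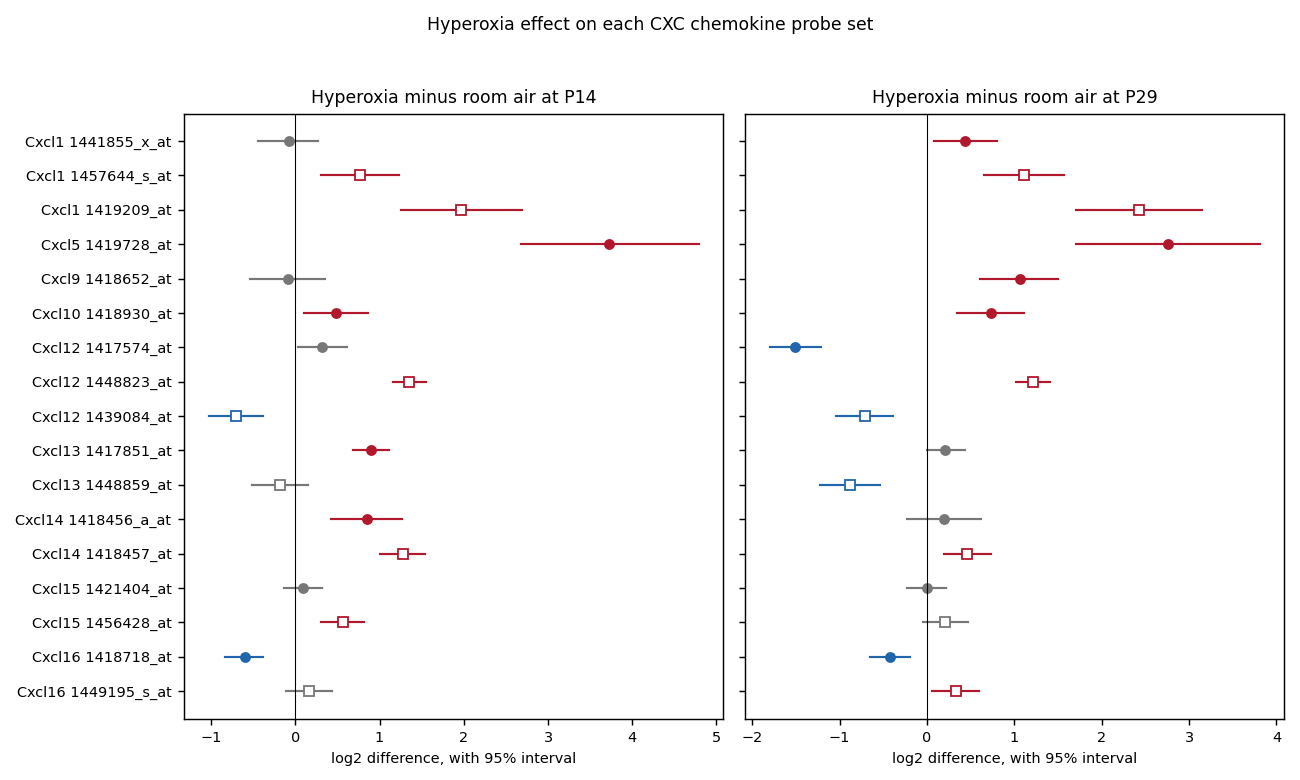
Hyperoxia minus room air (x axis, log2 difference, lines are 95% intervals) for the 17 tested probe sets of 9 genes (y axis) at P14 on the left and P29 on the right, from the fit of all probe sets. Circles are leading sets and squares the others; red marks called higher, blue called lower and grey not called, and Cxcl12 shows both directions at both ages.

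The receptors of Cxcl12 moved apart in the fit without added terms. Ackr3, an atypical receptor that binds and removes Cxcl12, was at 10.29 and 10.42 in P14 room air and 11.79, 11.61 and 11.64 in hyperoxia. At P29 it was at 10.30 and 10.11 against 11.78, 11.97 and 11.95. It was 2.5-fold higher at P14 and 3.24-fold higher at P29 (1.32 ± 0.10 and 1.69 ± 0.10, limma adjusted p = 3.58e-06 and 3.94e-07). Cxcr4, the signalling receptor, was at 9.20 and 9.47 in P14 room air against 9.09, 9.36 and 9.25 in hyperoxia. Those arrays overlapped (-0.10 ± 0.12, adjusted p = 0.51). At P29 it was at 9.25 and 9.42 against 8.53, 8.47 and 8.21, and fell by 0.93 ± 0.12 (adjusted p = 8.74e-05). The effects on Cxcr4 differed between the ages by -0.83 ± 0.17 (adjusted p = 0.00606). Dpp4, a peptidase that clips Cxcl12 and Cxcl10, was at -0.02 at P14 and fell by 0.78 at P29 (adjusted p = 3.34e-05), and another of its sets was called higher at P14 (0.51, adjusted p = 0.0038). Endothelial markers were higher for 1 and lower for 2 of 5 genes at P14 and lower for 3 at P29 (Gpihbp1, a lipase anchor of capillaries, -3.13, and Tek, the angiopoietin receptor, -1.69). Their mean level was 11.02 to 11.09 in P14 room air and 10.79 to 10.86 in P14 hyperoxia, and 11.53 to 11.59 and 10.17 to 10.36 at P29. Fibroblast and pericyte markers were higher for 2 and lower for 3 of 7 genes at P14 (Pdgfra, a growth factor receptor, -1.28, and Lum, a matrix protein, 1.69) and higher for 4 and lower for 2 at P29 (the collagens Col1a2, 0.76, and Col1a1, 0.70), with means of 11.00 to 11.45 over all arrays. Whether these cells bear on the Cxcl12 values was not tested.

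Cxcl13, which attracts B cells through Cxcr5, had probe sets that went apart in hyperoxia. The leading set, 1417851_at, read 6.62 and 6.59 in P14 room air and 7.43, 7.60 and 7.48 in hyperoxia, a 1.87-fold rise (0.90 ± 0.09, limma adjusted p = 2.63e-05). At P29 it read 7.27 and 7.31 against 7.54, 7.62 and 7.36, a difference of 0.21 ± 0.09 that did not pass (adjusted p = 0.0651) but did without hyperoxia replicate 3 (0.29, adjusted p = 0.0208). The effect at P29 was lower than at P14 by 0.68 ± 0.13 (-0.68, adjusted p = 0.00365). On the second set, 1448859_at, the P14 arrays overlapped (7.07 and 6.72 against 6.76, 6.62 and 6.78), and at P29 the values were 7.41 and 7.33 in room air and 6.25, 6.44 and 6.79 in hyperoxia. That set fell by 0.88 ± 0.15 at P29 (adjusted p = 0.000734). The sets shared a lower effect at P29 than at P14, by -0.70 ± 0.21 on the second (adjusted p = 0.0497).

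Cxcr5 and B cell markers were lower at P29. Cxcr5 was at 5.47 and 5.70 in P29 room air and 4.70, 4.55 and 4.58 in hyperoxia, a fall (limma adjusted p = 7.68e-06) of at least 1.5-fold against the limit, which all 8 other arrays lay below. Of 8 measured B cell markers, 4 fell at P14 and 8 at P29, of which Cr2 and Fcer2a reached the limit in P29 room air alone. Their mean level was 5.93 to 6.08 in P14 room air and 5.41 to 5.55 in P14 hyperoxia, and 6.60 to 6.82 and 5.43 to 5.48 at P29. Ms4a1, the B cell surface protein CD20, was at -0.94 and -2.27, Cd22, an inhibitory receptor, at -0.86 and -1.55, and Cd79a, a part of the antigen receptor, at -1.01 and -1.97. The part of B cells in the Cxcl13 values was not tested.

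Cxcl14, an epithelial chemokine conserved among vertebrates, had the largest change with age in room air of the 9 genes. Its leading set, 1418456_a_at, read 6.88 and 6.70 in P14 room air and 9.09 and 8.96 in P29 room air, a rise of 2.23 ± 0.20 (limma adjusted p = 6.99e-06). In hyperoxia it read 7.19, 7.82 and 7.92 at P14 and 9.24, 9.04 and 9.39 at P29, a rise of 1.58 ± 0.17 (adjusted p = 7.04e-05). Hyperoxia was above room air at P14 without overlap (0.85 ± 0.19, adjusted p = 0.00281) and overlapped at P29 (0.20 ± 0.19, adjusted p = 0.377). The second set, 1418457_at, gave 1.28 ± 0.12 at P14 and 0.46 ± 0.12 at P29 (adjusted p = 3.10e-05 and 0.00756), and its effects differed by -0.81 ± 0.17 (adjusted p = 0.00905). In the fit of all probe sets with the actin term, the P14 rise of the second set passed (1.36, adjusted p = 0.0275). That of the leading set did not (0.20, adjusted p = 0.761). The P29 rise of the second set passed neither with the actin term (0.54, adjusted p = 0.181) nor with the Y-linked term (0.28, adjusted p = 0.097). On the leading set the difference of effects, -0.65 ± 0.26, did not pass (adjusted p = 0.101), but it did without P14 hyperoxia replicate 1 (-0.88, adjusted p = 0.00534). The order of the groups was the same on both sets, from P14 room air through P14 hyperoxia and P29 room air to P29 hyperoxia, and the last 2 overlapped on the leading set alone.

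Cxcl16, a membrane-bound chemokine and lipoprotein scavenger of macrophages and epithelium, had called changes of opposite sign at P29. Its leading set, 1418718_at, read 8.87 and 8.99 in P14 room air and 8.47, 8.23 and 8.29 in hyperoxia, then 9.59 and 9.47 against 8.99, 9.19 and 9.13 at P29. It fell by 0.60 ± 0.10 at P14 and by 0.42 ± 0.10 at P29 (limma adjusted p = 0.000446 and 0.00341). The second set, 1449195_s_at, read 7.97 and 8.39 against 8.30, 8.27 and 8.45 at P14, with overlap, and 9.05 and 9.01 against 9.26, 9.44 and 9.36 at P29. It rose by 0.33 ± 0.12 at P29 (adjusted p = 0.0413). With all sets averaged, neither age passed (-0.22 and -0.05, adjusted p = 0.07 and 0.672). In the fit of all probe sets, neither set passed at P29 with the actin term (-0.32 and -0.01, adjusted p = 0.333 and 0.989). The same held at P29 with the Y-linked term (-0.35 and 0.39, adjusted p = 0.0523 and 0.067). At P14 the leading set passed with the Y-linked term (-0.58, adjusted p = 0.0017) and not with the actin term (-0.50, adjusted p = 0.2). Both sets rose with age in room air, by 0.60 ± 0.11 and 0.85 ± 0.13 (adjusted p = 0.00196 and 0.000647 in the fit of all probe sets). With the Y-linked term in that fit the leading set did not pass for age (0.49, adjusted p = 0.065) and the second did (0.75, adjusted p = 0.0271).

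Cxcr6, the receptor of Cxcl16, rose with age in room air, from below the limit to 5.96 and 6.27 (limma adjusted p = 4.62e-06). In hyperoxia it was called higher at P14 (adjusted p = 0.0215), where room air was below the limit and the bound is 1.04-fold, and differed by 0.01 ± 0.11 at P29 on its leading set. A dimmer set, 1422812_at, read 4.51 and 4.66 in P29 room air and 5.67, 6.37 and 5.90 in hyperoxia, a rise (adjusted p = 0.000104) of at least 1.97-fold against the limit, which this set reached in P29 hyperoxia alone. Adam10, a protease that sheds Cxcl16, rose by 0.35 and 0.75 on its brightest set and fell by 1.17 and 0.93 on the set 1450104_at. Of 7 proteases that process chemokines, 2 were higher and 2 lower at P14 and 3 higher and 2 lower at P29. Mmp9, a neutrophil gelatinase, fell by 0.87 and 1.19, Adam17, a sheddase, rose by 0.26 at P14 on its brightest set and fell by 1.03 on another, and Mmp2, a stromal gelatinase, rose by 1.14 at P29. Macrophage and monocyte markers were mixed, with 3 of 10 higher and 3 lower at P14 and 1 higher and 4 lower at P29. Their mean level was 8.07 to 8.21 in P14 room air and 7.63 to 7.91 in P14 hyperoxia, and 9.29 to 9.42 and 8.67 to 8.82 at P29. Siglecf, a marker of alveolar macrophages, reached the limit in P29 room air alone, where it was at least 4.06-fold higher than in hyperoxia, while Cd68, a lysosomal protein, fell by 1.07 and 1.36. Csf1r, the growth factor receptor of macrophages, rose by 0.51 at P14. The part of these cells in the Cxcl16 values was not tested.

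The other CXC ligands and receptors were measured alongside, in the fit without the actin or Y-linked term. Cxcl17, a mucosal epithelial chemokine, was at 7.94 and 8.03 in P14 room air and 9.78, 9.86 and 9.99 in hyperoxia, and at 9.91 and 8.84 against 10.88, 11.25 and 11.06 at P29. It was 3.72-fold and 3.21-fold higher (1.89 ± 0.23 and 1.68 ± 0.23, limma adjusted p = 7.73e-05 and 0.000118). Ppbp, the platelet ELR chemokine, fell by 0.95 ± 0.13 and 1.43 ± 0.13 (adjusted p = 0.000174 and 7.78e-06), while Pf4, platelet factor 4, rose by 0.33 ± 0.10 and 1.04 ± 0.10 (adjusted p = 0.0198 and 1.34e-05). Among 6 platelet markers 3 were lower and 1 higher at P14 (Gp9 -0.66 and Gp5 -0.47, both adhesion glycoproteins), and 4 lower and 2 higher at P29 (Itgb3, an integrin, 0.64, and Gp6, a collagen receptor below the limit in P29 hyperoxia, called lower). Their mean level was 6.63 to 6.97 in room air and 6.41 to 6.78 in hyperoxia. Of 5 club cell markers, 3 were higher and 1 lower at P14 (the enzyme Cyp2f2 1.07 and the secretoglobin Scgb3a1 -2.74) and 1 higher and 3 lower at P29 (Scgb3a1 -1.51 and the secreted Bpifa1 -3.86), with mean levels of 10.83 to 11.00 at P14, 13.42 to 13.46 in P29 room air and 12.13 to 12.56 in P29 hyperoxia. The part of these cells in the Cxcl17, Ppbp and Pf4 values was not tested. Cxcl11 lay between 4.88 and 5.38 with no call. Of the 7 receptors tested, 2 were higher and 1 lower at P14, and 1 was higher and 4 lower at P29, where Ackr1, a chemokine-binding protein of venules, fell by 0.32 (adjusted p = 0.0227).

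**Figure D4:**
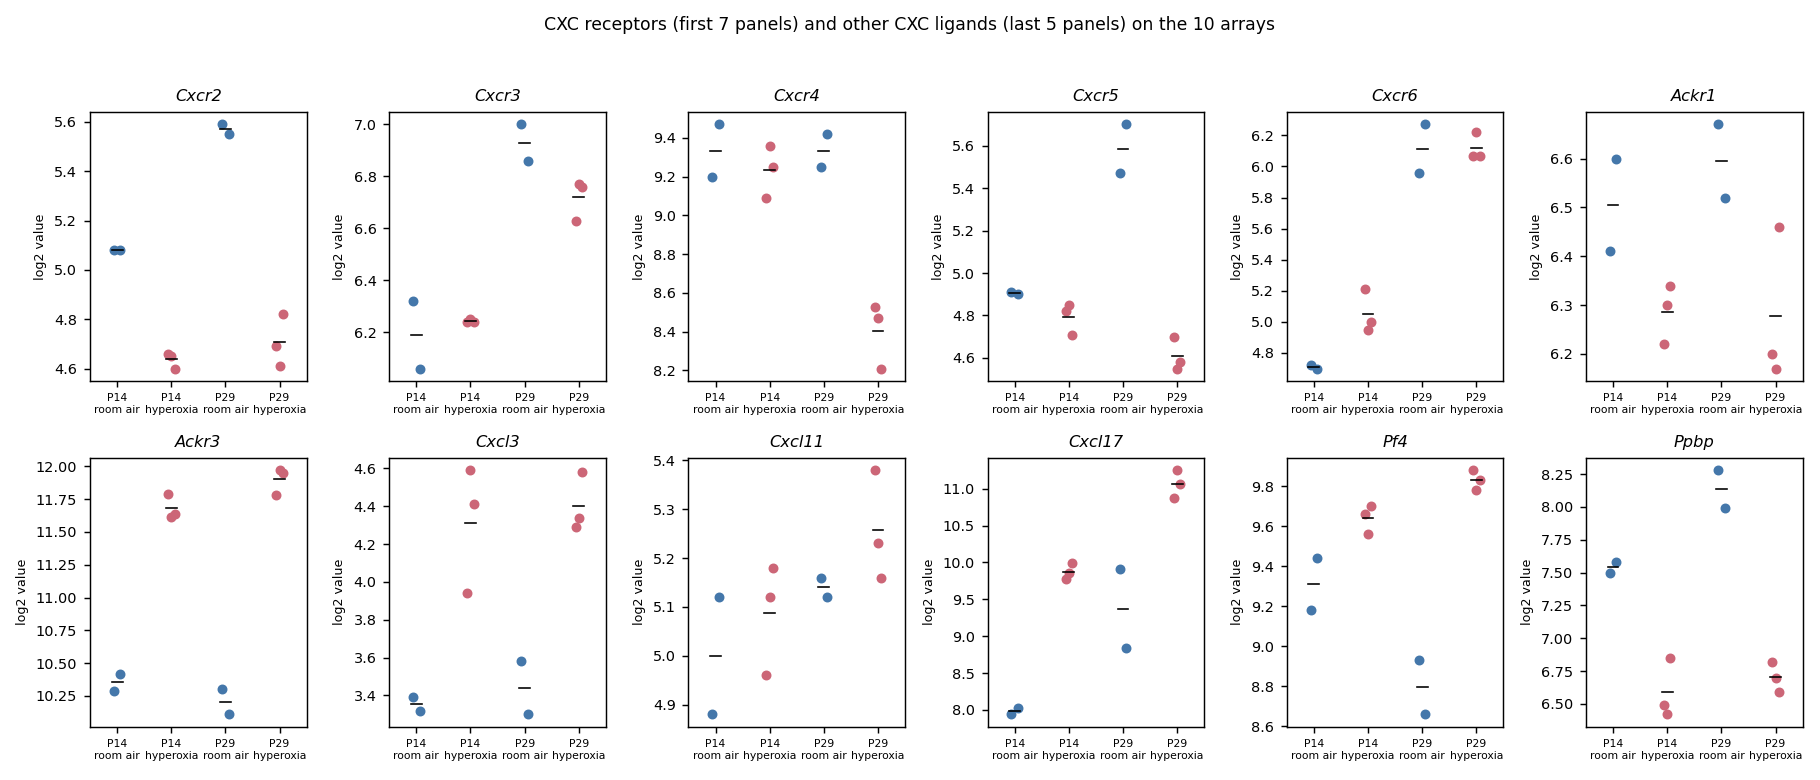
Log2 values (y axis, a separate scale in each panel) of 7 CXC receptors and 5 other CXC ligands on the 10 arrays by group (x axis; room air in blue, hyperoxia in red, bars at group means). Ackr3 and Cxcl17 are higher in hyperoxia at both ages, Cxcr2 and Ppbp are lower, and Cxcr4 and Cxcr5 separate at P29.

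By probe set, 17 of the 19 passed the limit. At P14, 9 were higher and 2 lower in hyperoxia, beside 52.5% of all probe sets called (27.9% higher, 24.6% lower). At P29, 9 were higher and 4 lower, beside 56.5% (29.9% higher, 26.5% lower). Of the 6 genes with at least 2 tested sets, all sets were called the same way for 1 gene at each age, Cxcl14 at P14 and Cxcl1 at P29. Opposite calls were found for 1 gene at P14 (Cxcl12) and for 2 at P29 (Cxcl12 and Cxcl16). Those of Cxcl16 did not stay with the actin or the Y-linked term. The calls in the same direction did not all stay either. With the actin term the leading Cxcl14 set was not called at P14 (adjusted p = 0.761) and no Cxcl1 set was called at P29 (adjusted p = 0.0757 to 0.806). With the Y-linked term the leading Cxcl1 set was not called at P29 (adjusted p = 0.131), while both Cxcl14 sets were called at P14 (adjusted p = 0.0078 and 5.01e-05). How often the sets of other genes agree was not counted, so these counts are not a result about this family.

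From P14 to P29, 4 of the 9 genes rose in room air and 0 fell (limma, beside 41.3% of all genes, 22.2% higher and 19.1% lower). These were Cxcl10, Cxcl13, Cxcl14 and Cxcl16. In room air the sex-linked transcripts changed with age as well, from Y-linked at P14 to Xist alone at P29. In hyperoxia 4 rose and 1 fell (beside 27.1%, 15.4% higher and 11.7% lower). Cxcl9 rose there by 1.65 ± 0.18 (adjusted p = 7.43e-05), Cxcl16 by 0.78 ± 0.09 (adjusted p = 0.000113), and Cxcl12 fell by 1.59 ± 0.11 on its leading set (adjusted p = 5.45e-06) but rose by 0.25 ± 0.08 on 1448823_at (adjusted p = 0.0439 over all probe sets). The hyperoxia effect differed between the ages for 3 of the 9 genes, Cxcl9, Cxcl12 and Cxcl13, 1 higher and 2 lower, beside 22.5% of all genes (11.0% higher, 11.6% lower). By probe set, 8 of 17 were higher with age in room air and 0 lower (beside 33.6%, 17.1% higher and 16.5% lower), and 7 were higher and 1 lower in hyperoxia (beside 21.7%, 11.6% higher and 10.1% lower). With the Y-linked gene level as a term, 6 of 17 were higher with age in room air and 0 lower. The leading Cxcl16 set (0.49, limma adjusted p = 0.065) and the second Cxcl13 set (0.48, adjusted p = 0.229) no longer passed. The hyperoxia effect differed between the ages for 5 sets (beside 16.1%).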

How the data were processed

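The authors deposited log2 expression values, 1 column per array. Per the submitters' processing notes, the tools were GCRMA and Partek 6.4, and no source used here gives their settings. Of 45101 probe sets, 34958 had 1 gene symbol, 932 several and 9211 none. Symbols were checked through Entrez numbers against the RefSeq table of GRCm38.p6, where 34754 matched and 0 changed. The 14989 genes that reached a log2 value of 5 on 2 or more arrays were fitted with limma 3.58.1 in R 4.3.3 as 4 group means over all 10 arrays, giving 5 contrasts (6 residual and 5.09 prior degrees of freedom). Tests were two-sided, with Benjamini-Hochberg adjustment over all genes kept. The fit of every probe set covered 27615. Errors are SE of the contrast or SD between arrays, and the number of arrays limits the precision.

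The genes, the pathway and marker lists and the tests were chosen with earlier results of these data known. Named were all 10 genes, list members by smallest p, and for members changed 2-fold the 3 genes of nearest pattern. Alternatives were other filters, probe set choices, fits, scalings, terms, a replicate block and leaving out each array. Of these steps, the limma fit was tested on simulated data, for the hyperoxia effect at P14. The simulation had independent noise and far fewer changed genes than were called here.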

Additional observations from a re-analysis of the deposited data

Results flagged for a closer look

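Several hyperoxia effects differed between P14 and P29 in limma's test of the difference (P29 minus P14, adjusted p under 0.05). Among the CXC chemokines these were Cxcl9 (1.15, adjusted p = 0.0123), Cxcl12 on its leading probe set (-1.83, adjusted p = 6.8e-05) and Cxcl13 (-0.68, adjusted p = 0.00365). Their effects were -0.09 and 1.06, 0.32 and -1.51, and 0.90 and 0.21 at the 2 ages. Second probe sets of Cxcl13 (-0.70, adjusted p = 0.0497) and Cxcl14 (-0.81, adjusted p = 0.00905) differed as well.

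Receptors with a lower effect at P29 were Cxcr2 (-0.42), Cxcr4 (-0.83) and Cxcr5 (-0.86), and the platelet ligand Pf4 had a higher one (0.70). These fitted values rest, for Cxcr2 and Cxcr5, on hyperoxia levels below the limit for testing. Among cytokines and their receptors the differences were -0.76 for Il1b, -0.52 for Il17ra and -0.60 for Ifngr1. Among NF-kB targets they were -0.52 for Nfkbia, -1.06 for Zfp36, -0.64 for Icam1 and 0.71 for Vcam1. Values named by gene alone are those of the leading sets. The other Vcam1 sets gave 0.32 and 0.12 with no call. Other Nfkbia sets passed on 1438157_s_at (-0.74) and 1449731_s_at (-0.99) and not on 1420089_at (-0.41) and 1448306_at (-0.70). Interferon-gamma response genes gave -1.33 for Gbp2, -0.64 for Gbp3, -0.62 for Igtp and -0.61 for Psmb8. The proteases Adam10 (0.40), Mmp2 (1.30) and Mmp12 (1.04) had higher effects at P29 and Dpp4 a lower one (-0.76). At P29 the room-air arrays had female and the hyperoxia arrays mixed sex-linked transcripts, and the part of this in the differences was tested only for the CXC chemokines, by a Y-linked term. With it the leading sets of Cxcl9, Cxcl12 and Cxcl13 passed in the fit over genes (adjusted p = 0.0325, 2.76e-05 and 0.0106), but in the fit of all probe sets Cxcl9 (adjusted p = 0.0555) and the second Cxcl13 set (adjusted p = 0.0917) did not.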

How the results depend on the processing

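When the actin control's 3' excess entered as a term, 1 of the 9 CXC chemokines was called at P14 (Cxcl13) and 1 at P29 (Cxcl12), in place of 5 and 6, and 1387 and 2905 genes in place of 8249 and 8948. The actin values of the 2 conditions do not overlap, so this term and oxygen cannot be told apart well. It also turned Cxcl1 (-0.12), Cxcl14 (-0.41) and Cxcl15 (0.10) at P29, all without a call. The cause was not tested. With the Y-linked gene level as a term, 3995 genes in place of 6195 were called for age in room air. It turned Cxcl5 (-0.43) and Cxcl12 (-0.17) for age in room air, Cxcl13 (-0.06) for age in hyperoxia and Cxcl10 (0.00) for the difference of effects, none of them called.

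Averaging probe sets turned Cxcl1 at P14 (0.89) and Cxcl13 at P29 (-0.33) into calls of the other sign, and turned, without a call, Cxcl15 at P29 (0.10), Cxcl1 for age in room air (0.01) and Cxcl13 for age in hyperoxia (-0.11). Uncalled values near 0 also changed sign for Cxcl9 at P14 (0.02 after quantile normalization), for Cxcl15 (0.01 at P29 after quantile normalization and with array weights, -0.01 at P14 with 75th percentile scaling) and for Cxcl13 with age in hyperoxia (0.00 after quantile normalization, -0.04 with array weights and -0.01 with 75th percentile scaling). Leaving out each array gave -0.30 to 0.11 for Cxcl9 and -0.20 to 0.10 for Cxcl1 at P14, -0.05 to 0.04 for Cxcl15 at P29, and -0.05 to 0.08 for Cxcl13 with age in hyperoxia. Where 1 array is left in a group, it is assumed to vary like the others. Leaving out arrays gave 4 to 6 called CXC chemokines at P14 and 5 to 7 at P29.

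The call of Cxcl1 at P29 on its leading set ended after quantile normalization, 75th percentile scaling, with the Y-linked term, and without P29 room air replicate 1 or hyperoxia replicate 1 or 2 (adjusted p = 0.0572 to 0.185). Without P14 hyperoxia replicate 1, Cxcl5 passed for age in hyperoxia (-1.23, adjusted p = 0.0226). With the replicate block 5 and 6 CXC chemokines were called at P14 and P29, with Cxcl10 at P14 (adjusted p = 0.0784) and Cxcl1 at P29 (0.0696) lost and Cxcl12 at P14 (0.0315) and Cxcl13 at P29 (0.0327) gained. Same-numbered arrays correlated in their deviations at 0.11 and 0.01 at P14 and -0.09 and -0.07 at P29, so the numbers were not taken to pair samples. Room-air levels of Cxcl5, and Cxcl2 throughout, lay where signal over background limits precision.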
